A study of Mus musculus with 8 samples.

Results

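The STAT genes encode transcription factors that carry the signal of cytokine receptors to the nucleus. A receptor that binds its cytokine activates JAK kinases, which phosphorylate STAT proteins on tyrosine. The STAT proteins then pair and bind DNA at their target genes, among them the SOCS genes, whose products inhibit the same kinases. In macrophages the family reads out interferons, interleukins and growth factors, and it takes part in setting the inflammatory or the repair programme of the cell. The genes examined were Stat2, Stat3, Stat4, Stat5a, Stat5b and Stat6, matched on the gene symbol of the probe annotation. They had 12 probes, of 25697 probes for 16593 named genes on the array. Stat3 and Stat4 had 3 probes each, Stat5a and Stat6 had 2 each, and Stat2 and Stat5b had 1 each. Probes of a gene are numbered from the brightest, and no level of a probe is set against that of another, because probes differ in their response.

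Messenger RNA was measured in peritoneal macrophages of C57BL/6 mice on 8 Illumina MouseRef-8 bead arrays. The cells came from WT mice or from mice without the Fcγ chain (FcgKO), the signalling adaptor of activating Fc receptors encoded by Fcer1g. Before treatment, all cells adhered to plastic overnight in medium holding 10% serum and 15% L929-conditioned supernatant, which supplies M-CSF, and unattached cells were washed away. One group of each genotype stayed unstimulated and the other received IFNγ at 10 ng/ml for 6 h, with 2 samples in each of the 4 groups. The labels name no promoter-driven Cre and no clone, and no age or sex is stated for the mice. Since separate animals or cultures are not stated for the samples of a group either, p-values here reflect the spread among these samples alone, and that spread may be technical. An exact permutation test of 2 samples against 2 cannot give a p below 0.333, so differences were tested with limma across all probes, with a precision limited by the 8 arrays.

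The deposited intensities were already on a common scale, with array medians between 102.98 and 103.02, and the replicates correlated across probes with r from 0.996 to 0.997. Fcer1g averaged 17959 ± 554 (SD, n = 2) in WT and 95.7 ± 0.0522 in FcgKO without stimulation, and 17669 ± 964 and 103 ± 5.82 with IFNγ, so its level matched the genotype labels. Of the 7 macrophage markers measured, 0 were under the array median on all arrays, and their summed intensity lay between 28158 and 31664 in the 8 samples. Most of that sum is Lyz2, which stood at 22479, the highest value of the arrays, in 5 of the 8 samples, so the sum shows little of the other markers. With IFNγ, 2 of the 7 rose and 3 fell in WT, and 1 rose and 1 fell in FcgKO. Timd4 rose by a log2 value of 1.58 in WT and 1.72 in FcgKO, and Gata6 fell by 2.14 and 1.97. By genotype, 1 of the 7 was called lower in FcgKO without stimulation and 2 with IFNγ, and 0 were called higher. Both FcgKO samples lay below both WT samples for Timd4 in each condition and for Mertk with IFNγ. For Adgre1, Gata6 and Icam2 both FcgKO samples lay above both WT samples in each condition. Markers of other cells were seen too. In the order unstimulated WT, WT with IFNγ, unstimulated FcgKO and FcgKO with IFNγ, the sum of the 7 neutrophil markers, none under the median on all arrays, ran from 3166 to 4078, from 4283 to 4585, from 2734 to 2815 and from 3100 to 3557. Nearly all of it is S100a8, at 2526 and 3411, 3638 and 3939, 2066 and 2176, and 2889.9 and 2469.9 in that order. S100a9, Ltf and Mpo were above the median on 2, 2 and 3 of the 8 arrays, with S100a9 between 92.6 and 106. In the same order the sum of the 6 mast cell markers, 1 of them under the median throughout, ran from 1983 to 2208, from 2478 to 2684, from 1223 to 1403 and from 1431 to 1820. The marker of this list called with IFNγ was Hdc, at 233 and 237, 603 and 453, 207 and 258, and 436 and 601. Between genotypes, 2 of the 6 were called lower in FcgKO without stimulation and 4 with IFNγ, and Cma1 lay between 537 and 646 in the WT samples and between 238 and 302 in the FcgKO samples. The sum of the 5 B cell markers, 1 under the median throughout, ran from 1690 to 2482, from 1584 to 2324, from 1389 to 1883 and from 1284 to 1606. The 10 T and NK cell markers, 4 under the median throughout, summed to between 1057 and 1194 in all groups. All 4 eosinophil markers, 3 of 5 dendritic cell markers and 4 of 6 mesothelial and fibroblast markers were under the median on all arrays, with sums from 368 to 389, from 473 to 494 and from 571 to 603. The part of these cells in the results given here was not tested, and in bulk RNA fewer cells of a type cannot be told apart from less RNA per cell.

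Stat3, Stat5a and Stat5b lie next to each other on chromosome 11, with 0 protein-coding genes between them. Stat2 and Stat6 share chromosome 10 with 26 protein-coding genes between them, and Stat4 is on chromosome 1. The promoter windows of the members with a probe called for IFNγ in either genotype are shown because the elements read by STAT complexes can be looked for in them. For Stat4 and Stat6 that was 1 probe in 1 genotype, a call lost in some alternative settings. The windows are RefSeq windows of 300 bases on GRCm38.p6, from 250 bases before the annotated start to 50 after it. The Stat2 window is chr10:128270248-128270547 (plus strand), the Stat3 window is chr11:100939491-100939790 (minus strand), the Stat6 window is chr10:127642736-127643035 (plus strand) and the Stat4 window is chr1:52007990-52008289 (plus strand), which is the second of the 2 Stat4 windows. It is printed because it holds a match, while the first Stat4 window, chr1:51986898-51987197 (plus strand), holds 0. Capitals mark matches on either strand to GAAA, 2 bases of any kind and GAAA again, the core of the interferon-stimulated response element, to which the complex of STAT2 and IRF9 binds.
Stat2: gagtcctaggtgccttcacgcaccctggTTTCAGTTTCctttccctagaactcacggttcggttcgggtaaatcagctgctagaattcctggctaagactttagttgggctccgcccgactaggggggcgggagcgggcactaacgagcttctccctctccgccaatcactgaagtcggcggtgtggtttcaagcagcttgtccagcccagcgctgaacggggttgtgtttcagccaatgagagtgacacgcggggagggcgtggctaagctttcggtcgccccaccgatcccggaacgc
Stat3: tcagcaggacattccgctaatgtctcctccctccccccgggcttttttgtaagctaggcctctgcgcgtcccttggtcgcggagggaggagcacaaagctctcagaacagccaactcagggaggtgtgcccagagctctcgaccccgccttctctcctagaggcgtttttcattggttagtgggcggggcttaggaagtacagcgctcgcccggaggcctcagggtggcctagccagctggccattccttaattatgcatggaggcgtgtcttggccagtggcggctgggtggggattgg
Stat6: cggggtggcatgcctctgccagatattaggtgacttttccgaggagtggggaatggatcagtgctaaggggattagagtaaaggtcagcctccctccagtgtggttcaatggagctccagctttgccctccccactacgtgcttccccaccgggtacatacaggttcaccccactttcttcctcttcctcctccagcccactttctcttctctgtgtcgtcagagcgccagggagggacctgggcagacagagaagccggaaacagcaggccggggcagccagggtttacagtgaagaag
Stat4: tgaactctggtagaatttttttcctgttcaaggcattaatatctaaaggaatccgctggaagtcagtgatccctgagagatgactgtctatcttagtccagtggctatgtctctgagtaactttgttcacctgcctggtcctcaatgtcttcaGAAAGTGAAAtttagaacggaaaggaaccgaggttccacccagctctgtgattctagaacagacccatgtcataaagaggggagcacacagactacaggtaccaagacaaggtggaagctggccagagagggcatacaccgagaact
The Stat2 match is TTTCAGTTTC, read on the strand opposite to the gene at 222 bases before the start. The Stat4 match is GAAAGTGAAA, 97 bases before the start of that window's transcript. These were 2 of the 9 windows of the 6 genes (22.2%), beside 1131 of 32851 windows of all genes (3.44%) and 10 of 18 windows of the listed STAT2 targets (55.6%). The other element searched, TTCNNNGAA, the palindrome of the IFNγ-activated site, occurred in 0 of the 9 STAT windows, in 2726 windows of all genes (8.3%) and in 3 of the 18 target windows (16.7%). Because TTCNNNGAA is its own reverse complement, each match was counted once. A match is a run of letters and not a measured site, and a window without one says nothing about the factor.

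**Figure D1:**
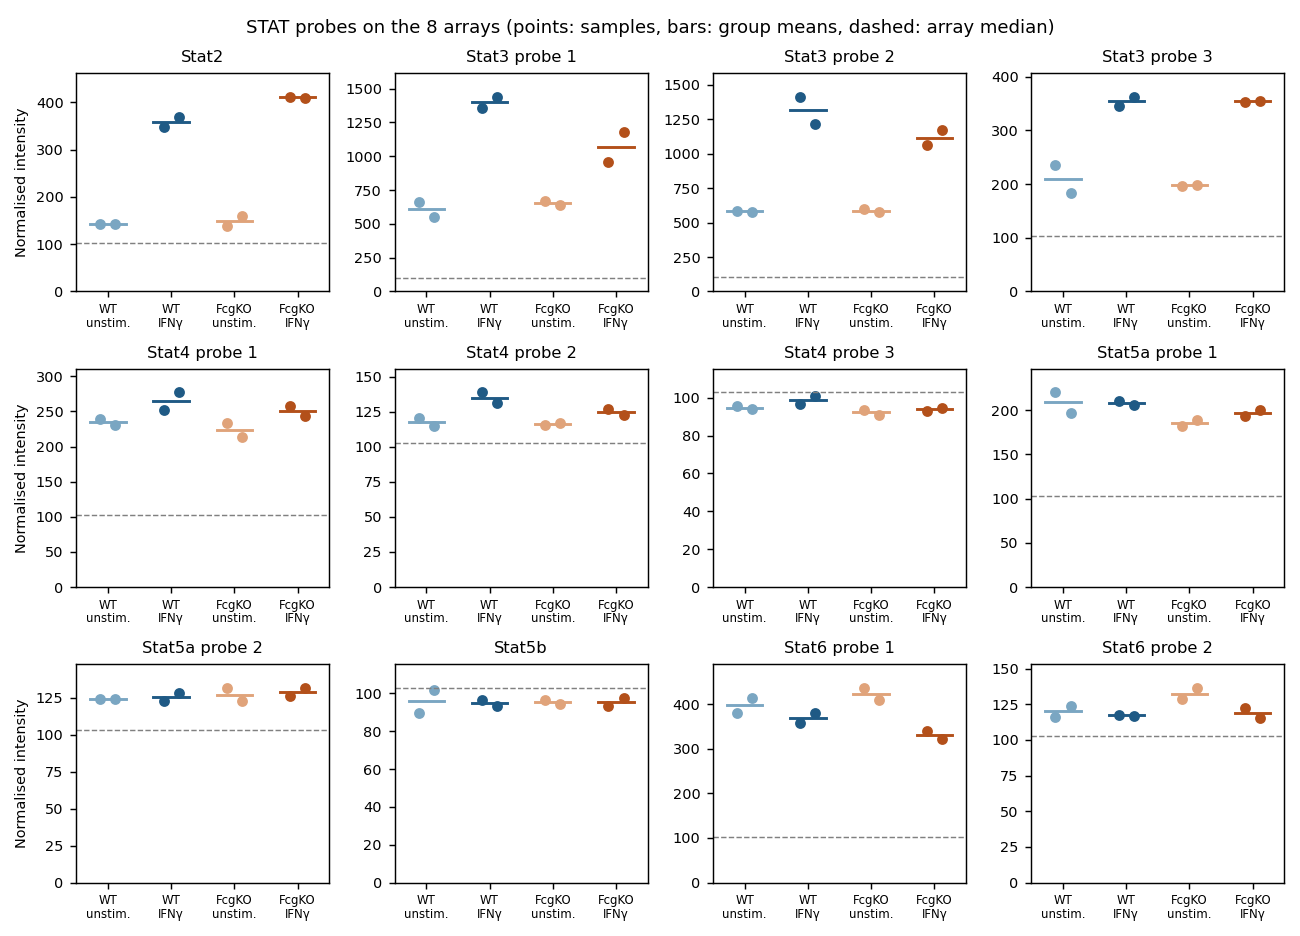
Deposited normalised intensity (linear axis from 0, a scale of its own for each probe) of the 12 STAT probes in the 4 groups. Points are the 2 samples of a group, bars their mean and the dashed line the array median of 103. Stat2 and the 3 Stat3 probes separate unstimulated samples from samples with IFNγ in both genotypes, while the third Stat4 probe and the Stat5b probe lie under the median in all 8 samples.

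Stat2, the partner of IRF9 in the complex that answers type I interferon, rose with IFNγ in both genotypes, with the highest log2 fold change of the 12 probes in each. Its intensity was 143 and 143 in the unstimulated WT samples and 348 and 369 after IFNγ. The FcgKO readings were 138 and 160 without and 412 and 409 with IFNγ. All 4 samples with IFNγ lay above all 4 without it, and the unstimulated groups overlapped. In deposited intensity the rise was 2.51-fold in WT and 2.76-fold in FcgKO. After background correction the log2 fold change was 1.59 (SE 0.09, 95% interval 1.39 to 1.78) in WT, with a limma adjusted p of 4.17e-07. In FcgKO it was 1.73 (SE 0.09, 95% interval 1.53 to 1.92), with a limma adjusted p of 2.02e-07. Among all 25697 probes this was the 150th highest log2 fold change in WT and the 126th in FcgKO.

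Stat3, which relays IL-6 and the anti-inflammatory cytokine IL-10, rose with IFNγ on all 3 probes in both genotypes. Probe 1 read 659 and 553 in unstimulated WT samples and 1359.5 and 1440.5 with IFNγ. In FcgKO it read 668 and 641 without and 957 and 1182 with IFNγ. Samples with IFNγ were higher in each genotype without overlap, and the FcgKO samples with IFNγ lay between the unstimulated samples and the WT samples with IFNγ. The rise of probe 1 was 2.32-fold in deposited intensity in WT (log2 after background correction 1.26, SE 0.11, limma adjusted p = 1.51e-05). In FcgKO it was 1.62-fold (log2 0.73, SE 0.11, limma adjusted p = 0.00112).

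Probe 2 of Stat3 read 588 and 579.8 in unstimulated WT samples and 1416 and 1215 with IFNγ. In FcgKO it read 597 and 578 without and 1062 and 1172 with IFNγ. As with probe 1, the unstimulated genotypes overlapped, and both WT samples with IFNγ were above both FcgKO samples with IFNγ. Its log2 fold change was 1.22 (SE 0.09, limma adjusted p = 2.85e-06) in WT and 0.97 (SE 0.09, limma adjusted p = 1.86e-05) in FcgKO. Probe 3 read 236 and 184 in unstimulated WT samples, 345 and 363 in WT with IFNγ, 196 and 199 in unstimulated FcgKO samples and 353 and 355 in FcgKO with IFNγ. With this probe the genotypes overlapped with IFNγ too, and only the treatment separated the samples. Its log2 fold change was 0.88 (SE 0.11, limma adjusted p = 3.00e-04) in WT and 0.97 (SE 0.11, limma adjusted p = 1.60e-04) in FcgKO. Stat2 and the 3 Stat3 probes were called higher in both genotypes under every alternative setting in which they were tested.

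Stat4, which relays IL-12, moved little. Probe 1 read 239 and 231 in unstimulated WT samples, 252 and 277 in WT with IFNγ, 233 and 214 in unstimulated FcgKO samples and 258 and 244 in FcgKO with IFNγ. Samples with IFNγ were higher in each genotype, but the log2 fold change of 0.20 (SE 0.08) in both did not pass (limma adjusted p = 0.19 in WT and 0.207 in FcgKO). Probe 2 read 121 and 115, 139 and 131, 115 and 117, and 127 and 123 in the same order. It rose in WT, at a log2 fold change of 0.27 (SE 0.07, limma adjusted p = 0.0307), and in FcgKO it stood at 0.14 (SE 0.07, limma adjusted p = 0.324). The WT call of probe 2 was lost without WT with IFNγ replicate 1 (adjusted p = 0.215), WT with IFNγ replicate 2 (adjusted p = 0.0535) or unstimulated WT replicate 2 (adjusted p = 0.186). It was also lost with a background offset of 16 (adjusted p = 0.0598) and with only the groups compared in the limma fit (adjusted p = 0.0577). Probe 3 of Stat4 lay between 91.1 and 101, under the array median on all 8 arrays, so no fold is given for it.

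Stat5a and Stat5b, neighbouring genes with near-identical products that relay GM-CSF and the IL-2 family, were not called in either genotype. Stat5a probe 1 read 221 and 197 in unstimulated WT samples, 211 and 206 in WT with IFNγ, 182 and 189 in unstimulated FcgKO samples and 194 and 201 in FcgKO with IFNγ. The WT groups overlapped, and the FcgKO samples with IFNγ lay above the unstimulated FcgKO samples. The 95% interval of its log2 fold change with IFNγ ran from -0.17 to 0.17 in WT and from -0.07 to 0.28 in FcgKO. Stat5a probe 2 read 124 and 124, 123 and 128, 131 and 123, and 126 and 132 in the same order. Groups next to each other in level overlapped, while both unstimulated WT samples lay below both FcgKO samples with IFNγ. Its 95% interval ran from -0.13 to 0.19 in both genotypes. The Stat5b probe lay between 89.9 and 102, under the median on all 8 arrays, and no fold is given. Whether the probes tell Stat5a from Stat5b transcripts was not tested, because probe sequences were not used here.

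Stat6, the factor of IL-4 and IL-13 signalling in alternatively activated macrophages, fell with IFNγ in FcgKO on 1 probe. Probe 1 read 381 and 415 in unstimulated WT samples and 358 and 381 in WT with IFNγ, and these groups overlapped. In FcgKO it read 437 and 409 without and 341 and 321 with IFNγ, and the 2 samples with IFNγ were the lowest of all 8. The fall in FcgKO was 1.28-fold in deposited intensity (log2 -0.39, SE 0.08, limma adjusted p = 0.00765), and in WT the log2 fold change was -0.12 (SE 0.08, limma adjusted p = 0.518). The FcgKO call was lost without unstimulated FcgKO replicate 1 (limma adjusted p = 0.0863), without FcgKO with IFNγ replicate 2 (limma adjusted p = 0.0650) or with an offset of 16 (limma adjusted p = 0.0661). Probe 2 read 116 and 124 in unstimulated WT samples, 118 and 117 in WT with IFNγ, 128 and 137 in unstimulated FcgKO samples and 122 and 115 in FcgKO with IFNγ. Here the unstimulated FcgKO samples were the highest, and the other groups overlapped. Its log2 fold change with IFNγ was -0.22 (SE 0.08, limma adjusted p = 0.127) in FcgKO and -0.04 (SE 0.08, limma adjusted p = 0.873) in WT.

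**Figure D2:**
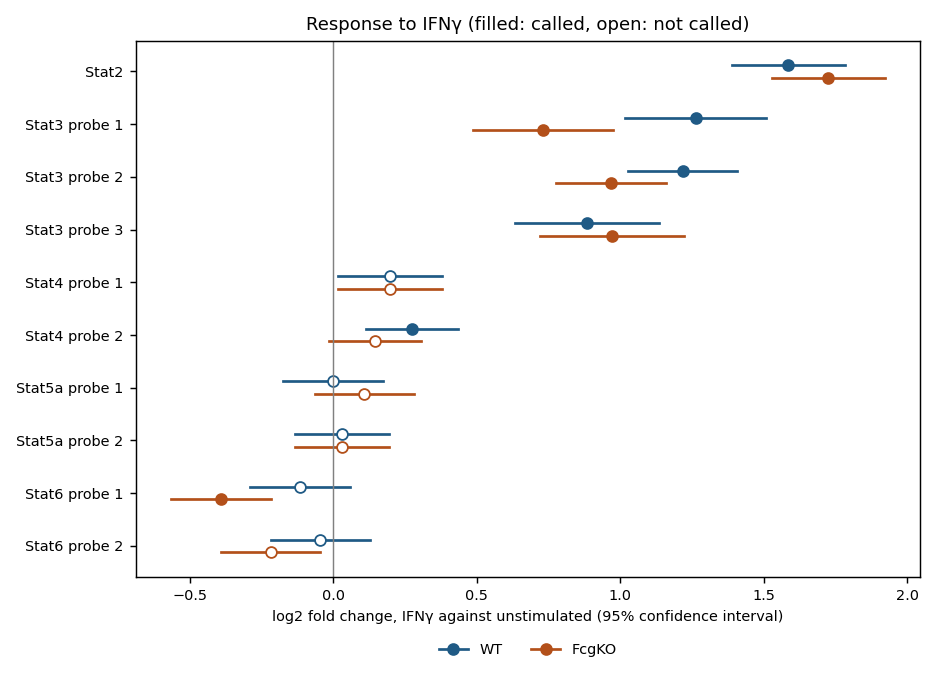
Log2 fold change with IFNγ against unstimulated samples (points, with 95% confidence intervals from limma) for the 10 STAT probes above the array median on all 8 arrays, in WT and FcgKO. Filled points passed an adjusted p of 0.05. Stat2 lies at 1.59 and 1.73 and the Stat3 probes between 0.73 and 1.26, while Stat4 lies between 0.14 and 0.27, Stat5a near 0 and Stat6 below 0.

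In WT, 5 of the 12 STAT probes were called higher with IFNγ and 0 lower, where 11.5% of all probes were called in either direction. In FcgKO, 4 were called higher and 1 lower, against 10.3% of all probes. These counts rest on few independent members, since 3 of the probes called higher in each genotype measure Stat3. Averaging the response over both genotypes, 6 probes were called higher and 1 lower, against 16.7% of all probes. In that average Stat2 rose by 1.66 (log2, SE 0.06, limma adjusted p = 6.92e-09) and the Stat3 probes by 1.00, 1.09 and 0.93. Stat4 rose by 0.20 on probe 1 (limma adjusted p = 0.0381) and by 0.21 on probe 2 (limma adjusted p = 0.0143), while Stat6 probe 1 fell by 0.25 (limma adjusted p = 0.00789). The averaged call of Stat4 probe 1 was lost without either unstimulated WT sample, WT with IFNγ replicate 2, unstimulated FcgKO replicate 2 or FcgKO with IFNγ replicate 1, with limma adjusted p from 0.0562 to 0.161. It was also lost with an offset of 16 (limma adjusted p = 0.138) and with a variance prior that follows a trend with intensity (limma adjusted p = 0.0874). That of probe 2 was lost without replicate 1 of unstimulated FcgKO, WT with IFNγ or FcgKO with IFNγ, or without unstimulated WT replicate 2, with limma adjusted p from 0.0508 to 0.0652. An offset of 16 ended the averaged call of Stat6 probe 1 (limma adjusted p = 0.0629).

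FcgKO was then compared with WT, to ask whether the family depended on the Fcγ chain. In unstimulated cells 0 of the 12 STAT probes were called by limma, where 0.724% of all probes were, and 2 had an unadjusted p under 0.05. These were Stat5a probe 1, at a log2 difference of -0.21 (SE 0.08, limma adjusted p = 0.489), and Stat6 probe 2, at 0.20 (SE 0.08, limma adjusted p = 0.522). Unstimulated FcgKO samples were below both WT samples for the first and above both for the second. Such a separation of 2 samples from 2 has a p of 0.333 in an exact permutation test. The share of all probes with an unadjusted p under 0.05 was not counted. Counts of STAT probes under that cut, here and below, are therefore a description only. The intervals for Stat2 and for Stat3 probe 2 ran from -0.12 to 0.27 and from -0.18 to 0.20. Averaged over both conditions, 0 STAT probes were called by limma, against 3.22% of all probes, and 2 had an unadjusted p under 0.05.

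With IFNγ, 0 STAT probes differed by genotype after adjustment in limma, where 2.6% of all probes did, and 4 had an unadjusted p under 0.05. Stat3 probe 1 was lower in FcgKO by a log2 difference of -0.41 (SE 0.11, limma adjusted p = 0.098) and probe 2 by -0.24 (SE 0.09, limma adjusted p = 0.258). Both FcgKO samples lay below both WT samples on these 2 probes. Stat3 probe 3 gave a difference of 3.71e-04 with a 95% interval from -0.25 to 0.25, so the probes of the gene did not give the same value. Without FcgKO with IFNγ replicate 2, the sample with the higher reading of its group, probe 1 was called lower (log2 -0.57, limma adjusted p = 0.0375). Stat2 was at 0.22 (SE 0.09, limma adjusted p = 0.36) and Stat6 probe 1 at -0.18 (SE 0.08, limma adjusted p = 0.423), with the FcgKO samples above the WT samples for Stat2 and below them for Stat6.

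The difference between the IFNγ responses of FcgKO and WT was tested as an interaction. It was called by limma for 0 STAT probes, where 0.0428% of all probes were called, and 2 STAT probes had an unadjusted p under 0.05. For Stat3 probe 1 the response in FcgKO was smaller by a log2 value of -0.53 (95% interval -0.88 to -0.19, limma adjusted p = 0.493). For probe 2 the value was -0.25 (95% interval -0.52 to 0.02, limma adjusted p = 0.758) and for probe 3 it was 0.09 (95% interval -0.27 to 0.44). Stat6 probe 1 gave -0.27 (95% interval -0.52 to -0.03, limma adjusted p = 0.686), so its call in FcgKO alone is not shown to differ between genotypes. Stat2 gave 0.14 (95% interval -0.14 to 0.42). An adjusted p above the threshold does not show that the genotypes responded alike, and the intervals give the differences these arrays allow.

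**Figure D3:**
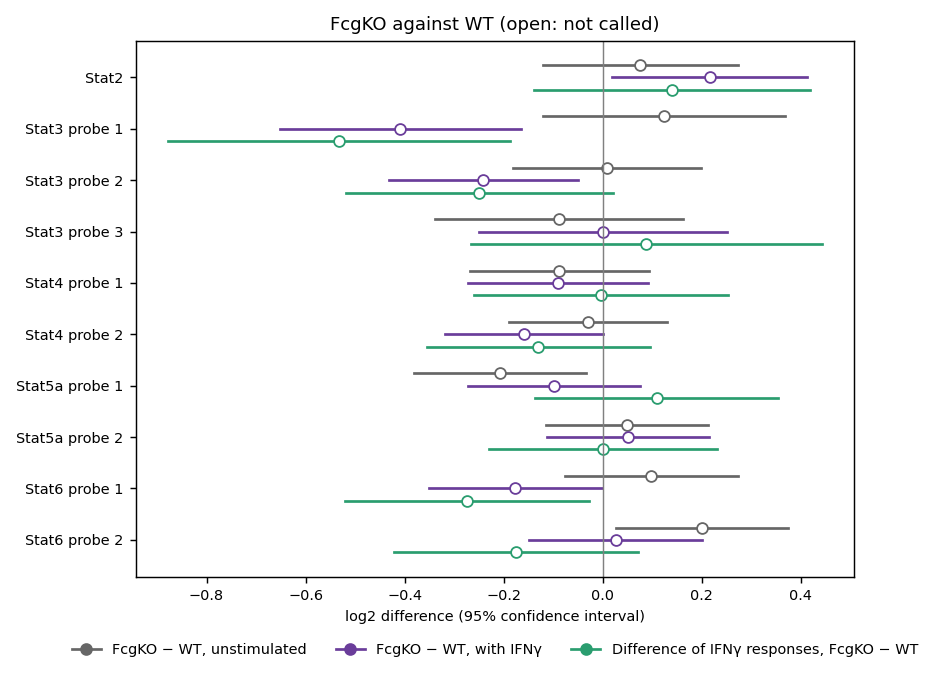
Log2 difference between FcgKO and WT without stimulation and with IFNγ, and the difference of their IFNγ responses (points, with 95% confidence intervals from limma), for the 10 STAT probes above the array median on all arrays. All points are open because none passed an adjusted p of 0.05. Stat3 probe 1 lies at -0.41 with IFNγ and at -0.53 for the difference of responses, and Stat3 probe 3 near 0.

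In the order of levels, Stat2 ran from FcgKO with IFNγ through WT with IFNγ to the unstimulated groups, and only the unstimulated groups overlapped. Stat3 probes 1 and 2 ran from WT with IFNγ through FcgKO with IFNγ to the unstimulated groups, which overlapped. For Stat3 probe 3 and Stat4 probe 1 the genotypes overlapped within each condition. On Stat4 probe 2 the WT samples with IFNγ were above the FcgKO samples with IFNγ, which were above the overlapping unstimulated groups. On Stat5a probe 1 the unstimulated WT samples overlapped both WT with IFNγ and FcgKO with IFNγ. The WT samples with IFNγ lay above both FcgKO groups, and FcgKO with IFNγ lay above unstimulated FcgKO. For Stat6 probe 1 the unstimulated FcgKO, unstimulated WT and WT with IFNγ samples overlapped only with their neighbours in that order, and FcgKO with IFNγ stood alone at the bottom.

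The genes whose pattern over the 8 samples was most like that of each member were ranked by Pearson's r of log2 values, among the probes above the array median on all arrays. For Stat2 they were Uba7, which encodes the enzyme that activates ISG15 (r = 0.999), Trafd1 (0.998) and Rab43 (0.996). Uba7 rose with IFNγ by a log2 value of 2.03 in WT and 2.17 in FcgKO, with limma adjusted p = 1.14e-08 and 6.49e-09. For Stat3 they were Pdcd10 (0.993), Cemip2 (0.991) and Apobec3, which encodes a cytidine deaminase (0.986). Apobec3 rose by 0.99 in WT and 0.68 in FcgKO (limma adjusted p = 2.24e-05 and 4.76e-04). For Stat6 they were Comtd1 (0.975), Lmnb2, the gene of lamin B2 (0.971), and Ctdsp1 (0.964). Lmnb2 fell in FcgKO by 0.45 (limma adjusted p = 0.00172) and stood at -0.09 in WT (limma adjusted p = 0.606). For Stat4 they were Bclaf3 (0.961), Phtf2 (0.959) and P3h1 (0.959), for Stat5a Pex2 (0.970), Luc7l3 (0.956) and Clec4n (0.942), and for the dim Stat5b probe Vps53 (0.936), Sem1 (0.919) and Ccl25 (0.913). With 8 samples in 4 groups and 9890 to 9893 candidate probes for each member, high values of r are a description only, and the samples share their groups.

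The genes around the STAT factors were read by list, each gene by its brightest probe, with 152 of 160 listed genes measured and 13 in more than 1 list. In WT, 5.53% of all genes were called higher with IFNγ and 7.71% lower, and in FcgKO 5.02% and 6.99%. These shares include dim genes, since 5850 of all 16593 genes were under the array median on all arrays. Among the lists this held for 0 of the 4 JAK kinases and 5 of the 27 cytokine receptors. It held for 1 of the 23 STAT2 targets and 0 of the 20 STAT3 targets. The median log2 fold change of all genes was -0.01 in WT and -0.02 in FcgKO. The difference of IFNγ responses between genotypes was called for 0 genes of any list, beside 3 higher and 4 lower of all 16593 genes. WT and FcgKO values set side by side below are thus not shown to differ. Of the 4 JAK kinases, which phosphorylate the STAT proteins, 3 rose in WT and 4 in FcgKO, with medians of 0.49 and 0.55. Jak2, a kinase of the IFNγ receptor, rose by 1.05 in WT and 0.98 in FcgKO (limma adjusted p = 1.37e-04 and 2.42e-04). Jak3, a kinase of the receptors of the IL-2 family, rose by 0.48 and 0.58. Jak1 was the kinase not called in WT. In FcgKO it rose by 0.52 (limma adjusted p = 0.0141), a call lost without some single samples. Without unstimulated FcgKO replicate 1 or FcgKO with IFNγ replicate 2, the FcgKO count was 2.

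Of 27 cytokine receptors measured, 6 rose and 2 fell in WT, and 7 rose and 2 fell in FcgKO, with medians of 0.08 and 0.10. Il15ra, the IL-15 receptor chain that presents its cytokine to neighbouring cells, rose by a log2 value of 2.16 in WT and 2.03 in FcgKO. Il13ra1, a chain of the receptor upstream of Stat6, rose by 1.61 and 1.59, and Csf2rb2, a chain of the receptor of IL-3, by 1.32 and 1.69. Il10ra, the receptor upstream of Stat3 that binds IL-10, rose by 0.83 in WT and 1.35 in FcgKO. The receptors that fell, named after their values were seen, were Ifngr1, the chain that binds IFNγ (-0.45 and -0.64), and Il10rb, the shared chain of the IL-10 family (-0.63 and -0.58). Of 18 ligands measured, 1 rose in WT and 3 in FcgKO, with 0 lower in either. The ligand called in both was Il27, above the array median on 1 of 2 unstimulated arrays in each genotype, so no fold is given.

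Of 20 inhibitors of the pathway, 5 rose and 1 fell in WT, and 4 rose and 1 fell in FcgKO, with a median of 0.04 in each. Socs3, which blocks signalling of the IL-6 receptor, rose by a log2 value of 2.89 in WT and 3.11 in FcgKO (limma adjusted p = 2.07e-07 and 1.11e-07). Socs1 rose by a log2 value of 2.55 in WT (limma adjusted p = 8.25e-10) and was called higher in FcgKO too. In FcgKO its mean intensity was 102 without IFNγ, under the array median on both arrays, and 403 with it. Usp18, which removes ISG15 and restrains the type I interferon receptor, rose by 2.09 and 3.22, and Cish, a brake on signalling through Stat5, by 1.37 and 0.95. Socs2 fell by 0.59 and 0.57. Of 15 partners and cofactors measured, 3 rose in WT, and 4 rose and 1 fell in FcgKO, with medians of 0.06 and 0.07. Irf9, the DNA-binding partner of Stat2, rose by 0.60 in WT and 0.72 in FcgKO (limma adjusted p = 9.28e-04 and 2.71e-04), and Parp14, a cofactor of Stat6, by 2.19 and 2.48. The FcgKO count of partners that rose was 2 without unstimulated FcgKO replicate 1 or without either FcgKO sample with IFNγ.

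Most listed targets of the STAT2 complex rose. Of 23 measured, 19 rose in WT and 20 in FcgKO and 0 fell, with median log2 fold changes of 1.05 and 1.36, and 19 were called higher in both. Isg15, which encodes the ubiquitin-like modifier, rose by 2.75 in WT and 3.48 in FcgKO (limma adjusted p = 1.15e-07 and 1.62e-08). Ifit2, which encodes an antiviral protein, rose by 2.26 and 3.29. Of 20 measured targets of STAT3, 7 rose and 1 fell in WT, and 5 rose and 1 fell in FcgKO, with medians of 0.20 and 0.18. They include Socs3, given above among the inhibitors, and Timp1, an inhibitor of metalloproteinases, which rose by 1.13 in WT and 0.56 in FcgKO (limma adjusted p = 1.76e-04 and 0.0215). The FcgKO call of Timp1 was lost without either unstimulated FcgKO sample or FcgKO with IFNγ replicate 1 (limma adjusted p from 0.105 to 0.141). Vegfa, the growth factor of blood vessels, fell by 0.51 in WT and 0.85 in FcgKO (limma adjusted p = 0.0226 and 9.68e-04). The WT call was lost without unstimulated WT replicate 1 or WT with IFNγ replicate 1, which left 0 STAT3 targets lower in WT, as did the fits with no background correction and with an offset of 16. The count of STAT3 targets that rose in WT was 3 without WT with IFNγ replicate 1 and 4 without replicate 2. The FcgKO count was 1 without unstimulated FcgKO replicate 2, and 3 without unstimulated FcgKO replicate 1 or FcgKO with IFNγ replicate 1.

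Of 9 listed targets of STAT4, 2 rose and 1 fell in each genotype. Furin, a protease that cuts proproteins, rose by a log2 value of 0.66 in WT and 0.37 in FcgKO (limma adjusted p = 1.08e-04 and 0.00704), and the homeobox gene Hlx fell by 0.65 and 0.39 (limma adjusted p = 9.42e-04 and 0.0266). The FcgKO call of Furin was lost without FcgKO with IFNγ replicate 1 or unstimulated FcgKO replicate 2 (limma adjusted p = 0.0599 and 0.0788). That of Hlx was lost without either FcgKO sample with IFNγ or unstimulated FcgKO replicate 1 (limma adjusted p from 0.0727 to 0.249). Of 10 targets of STAT5, 3 rose and 2 fell in WT and 2 rose and 2 fell in FcgKO. Ccnd2, which encodes a cyclin, rose by 1.26 and 1.00 (limma adjusted p = 3.69e-05 and 2.37e-04), and Cish and Socs2, given above, are on this list too. Of 18 measured targets of STAT6, 4 rose and 1 fell in WT and 2 rose and 1 fell in FcgKO, with medians of -0.03 and -0.06. The coactivator gene Ppargc1b rose by 1.22 and 1.57, and Mrc1, the mannose receptor used as a marker of alternative activation, by 1.13 and 0.95 (limma adjusted p = 9.76e-05 and 3.88e-04). Single samples moved these small counts. The STAT6 targets that rose in WT numbered 2 without unstimulated WT replicate 1 or WT with IFNγ replicate 2. The STAT5 targets that fell in WT numbered 1 without either unstimulated WT sample or WT with IFNγ replicate 2. The STAT4 targets that rose in WT numbered 1 without unstimulated WT replicate 2, either WT sample with IFNγ or either unstimulated FcgKO sample, and in FcgKO 1 without unstimulated FcgKO replicate 2 or FcgKO with IFNγ replicate 1.

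**Figure D4:**
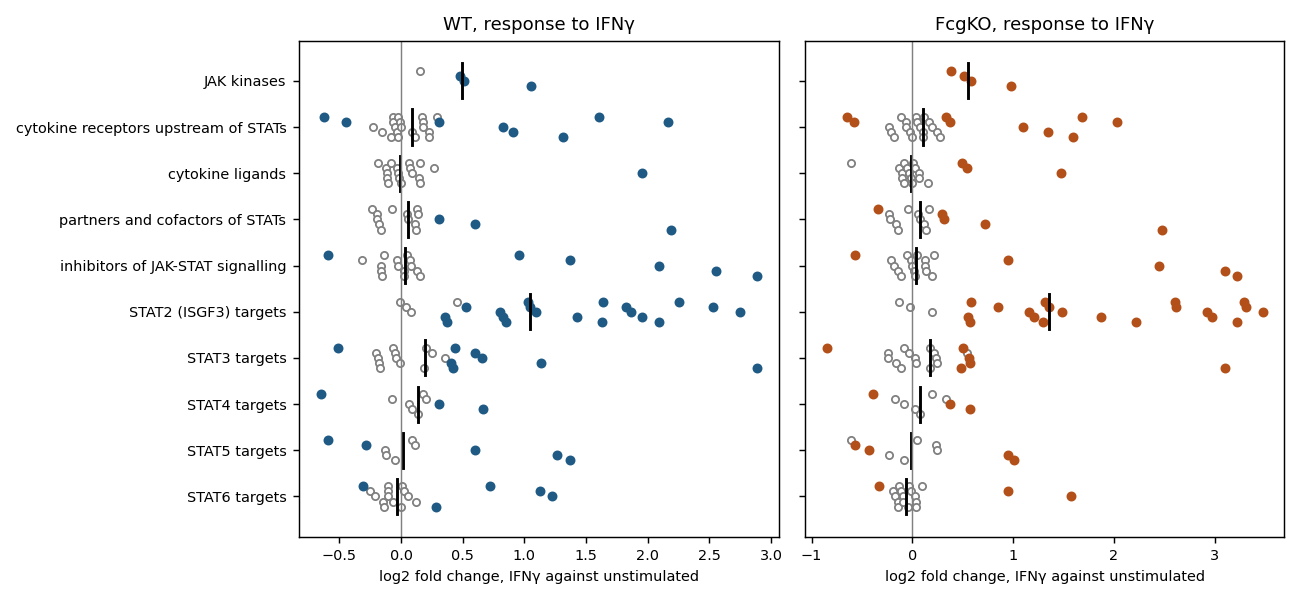
Log2 fold change with IFNγ against unstimulated samples for the genes of 10 STAT-related lists (1 point per gene, brightest probe, background-corrected values, dim genes included) in WT and FcgKO. Filled points passed an adjusted p of 0.05, open points did not, and black bars are list medians. The median of the STAT2 targets lies at 1.05 in WT and 1.36 in FcgKO, and that of each other list at 0.55 or less.

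Some genes of these lists were called between the genotypes. Without stimulation 1 of the 152 genes was higher in FcgKO and 5 were lower, beside 48 and 90 of all 16593 genes (0.289% and 0.542%). With IFNγ 7 of the 152 were higher and 9 lower, beside 214 and 272 of all genes (1.29% and 1.64%). The shares of the lists are the larger ones, but those of all genes include the 5850 genes under the median. The lists were also chosen with earlier results of these data known. Hp, the gene of haptoglobin and a listed STAT3 target, was lower in FcgKO by a log2 value of -2.18 without and -1.98 with IFNγ (limma adjusted p = 1.35e-04 and 1.08e-04). Socs3 was lower in unstimulated FcgKO by -0.83 (limma adjusted p = 0.0293). Its mean intensity with IFNγ was 6826 in WT and 4560 in FcgKO (not called). Il10ra was lower in unstimulated FcgKO by -0.49 (limma adjusted p = 0.0177), with means of 680 and 694 with IFNγ. The Socs3 call was lost with no background correction (limma adjusted p = 0.126) and that of Il10ra with an offset of 16 (limma adjusted p = 0.124). Both were lost without some single samples. Egr2, a listed STAT6 target and macrophage transcription factor, was lower in FcgKO by -0.56 without and -0.97 with IFNγ (limma adjusted p = 0.00547 and 5.09e-05). Its call without IFNγ was lost with an offset of 16 (limma adjusted p = 0.0801) and without unstimulated FcgKO replicate 1. Of the 23 STAT2 targets, 0 were called without and 2 higher with IFNγ, and of the 20 STAT3 targets, 3 were lower without IFNγ, and 2 were higher and 4 lower with it. Among the genes called higher in FcgKO with IFNγ were the STAT2 target Ifit2, by 0.81, and the STAT3 targets Ccnd1, by 0.71, and Bcl2l1, by 0.66. Their limma adjusted p was 0.00736, 0.00871 and 0.00832, and each call was lost without some single samples. Il13ra1 was higher by 0.37 without and 0.36 with IFNγ (limma adjusted p = 0.0353 and 0.0193). An offset of 16 ended both of its calls (limma adjusted p = 0.305 and 0.239). The JAK kinases and the STAT4 targets held 0 calls by genotype. The number of listed genes called fell to 1 without unstimulated FcgKO replicate 1 for unstimulated cells. With IFNγ it fell to 5 and 7 without WT with IFNγ replicates 1 and 2 and to 8 without FcgKO with IFNγ replicate 2, and the number of STAT2 targets called higher was 7 without either unstimulated FcgKO sample and 1 without either WT sample with IFNγ or FcgKO with IFNγ replicate 2. The number of STAT3 targets called lower was 1 for unstimulated cells without either unstimulated FcgKO sample, and with IFNγ 1 without WT with IFNγ replicate 2 and 2 without FcgKO with IFNγ replicate 2.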

How the data were processed

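Messenger RNA of 8 samples was measured on Illumina MouseRef-8 arrays after DNase treatment, amplification and biotin labelling, per the labels' protocols. The deposited intensities used here, 1 column per sample, are linear values from 82.1 to 22479. GenomeStudio was used per the submitters' processing notes, with no version stated. Sorted values of any pair of arrays lay within 0.00585 log2 units of each other, which shows that the authors had normalised intensities between arrays (the method is not stated), without background subtraction. A second deposited table names arrays by number only, so its 16 columns (signal and detection p) could be given to no sample and were not used.

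Of 25697 probes, 23978 had a single gene symbol and 1719 none. Of these, 23962 matched the reference gene table (GRCm38.p6), which changed 0 symbols. Genes with more than 1 probe numbered 4777. Intensities were background-corrected with normexp at an offset of 50, which understates the fold changes of dim probes, and taken to log2. A model with a mean for each group was fitted to the 8 arrays (limma 3.58.1, R 4.3.3, version 1.17.8 of data.table, with 4 residual and 7.05 prior degrees of freedom). Probes were called at a Benjamini-Hochberg adjusted p under 0.05 over the whole table. A probe under the array median on all arrays of a group has only a bound there. In simulated data with 50 of 25697 probes changed per fold size, the fit of the WT response called 0% of 1.2-fold, 66% of 1.5-fold and 88% of 2-fold changes. The changed probes were drawn from the brighter probes only, and the change was added after background correction. These rates therefore do not hold for dimmer probes, among them Stat5b and the dimmer probes of Stat4, Stat5a and Stat6. Far fewer probes were changed than the 2963 called for the WT response in the data. The Benjamini-Hochberg cut was thus stricter in the simulation, and its rates are not those of the real fit.

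The members and the gene lists (10 of STAT signalling and 8 of cell type markers) were chosen with earlier results of these data known. The text names every STAT probe, up to 4 called genes per list and comparison with the largest absolute change, and the 3 genes most like each member. Alternatives were no background correction, an offset of 16, renewed quantile normalisation, a filter on dim probes, 1 probe per gene, a variance prior with a trend, only the groups compared, the replicate number as a block, and each sample left out.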

Additional observations from a re-analysis of the deposited data

How the results depend on the processing

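Across 16 alternatives no log2 fold change that was called, in the main fit or in the alternative, changed its sign. The calls of Stat2 and of the 3 Stat3 probes in each genotype were kept wherever they were tested. Some uncalled values did change sign. For Stat3 probe 3 the difference between unstimulated FcgKO and WT ranged from -0.30 to 0.13. The log2 fold change of Stat2 ranged from 1.33 to 1.97 in WT and from 1.46 to 2.11 in FcgKO, and that of Stat3 probe 1 from 1.13 to 1.40 and from 0.57 to 0.89. For all probes, no background correction gave 117 calls for unstimulated FcgKO against WT (37 higher, 80 lower) and 3 for the difference of responses. An offset of 16 gave 117 (32 higher, 85 lower) and 5, with 407 (156 higher, 251 lower) for FcgKO against WT with IFNγ and 546 (212 higher, 334 lower) for the average over conditions, and 2 and 9 listed genes called without and with IFNγ. With 1 probe per gene, 2 STAT probes were called in WT, 3 in FcgKO and 4 in the average response, since fewer STAT probes were tested, and 3 genes for the difference of responses. Leaving out each sample in turn gave 1858 to 3037 probes called for the WT response, 1594 to 2859 for the FcgKO response, 66 to 245 and 304 to 754 for the genotype difference without and with IFNγ, 3 to 58 for the difference of responses, 3521 to 4127 for the average response and 517 to 922 for the average genotype difference. The same gave 4 to 5 STAT probes in each genotype, 0 to 1 for FcgKO against WT with IFNγ and 5 to 7 for the average response, and 47 to 57, 45 to 60, 1 to 9 and 5 to 21 listed genes for the WT response, the FcgKO response and the genotype difference without and with IFNγ. The labels do not say that a replicate number marks a shared animal or day, and the deviations of same-numbered samples from the group means correlated at -0.03 to 0.20, so the numbers were not taken to pair the samples. The B cell gene Cd79b, chosen after its values were seen, was higher in replicate 1 than in replicate 2 in all 4 groups (1661 against 1032, 1610 against 984, 1228 against 806, and 1005 against 739), and its part in the results was not tested. The replicate number as a block changed the call of no STAT probe and gave 319 probes (128 higher, 191 lower) for unstimulated FcgKO against WT and 33 (15 higher, 18 lower) for the difference of responses. Of 85 named results of listed genes, 52 kept their call in all settings. The cause of these changes was not tested. Stat5b, the third Stat4 probe and other probes near the array median are limited by their low signal over background.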
